A study of Mus musculus with 20 samples.

Results

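Medium spiny neurons, the principal neurons of the striatum, carry a set of signalling genes that both of their classes share, and 9 such genes were followed here through cortex RNA-seq of aged APOE4 mice: Ppp1r1b, Adcy5, Rgs9, Pde10a, Rasd2, Scn4b, Syndig1l, Rarb and Zfp503. They are 9 of the 23413 genes in the count tables, and all 9 were among the 15660 genes that passed the filter on low counts. The genes were chosen from earlier results of these same data, as signalling genes enriched in all medium spiny neurons, with the diet contrast of the females already known. That contrast, and every contrast that uses those females, is therefore given as a description with no p-value, and the diet contrast is tested in males only.

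All 20 mice carried a humanized knock-in allele of Apoe (tm1.1(APOE*4)Adiuj, on a B6(SJL) background), with no animals of another genotype, and each library came from the cortex of 1 mouse. The mice were fed a ketogenic diet (KD) or a control diet (CD, called SD in the sample labels) from 10 to 22 months of age, in equal calories and housed singly, and were fasted before the tissue was taken. Of the females, 5 were on CD and 4 on KD, and of the males 5 were on CD and 6 on KD. The labels name no cortical area, and neither a reporter nor a sort marks spiny neurons in these mice.

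In a spiny neuron, dopamine and adenosine receptors act through G proteins on adenylyl cyclase, and the cAMP made there activates protein kinase A. The kinase phosphorylates DARPP-32, which then blocks protein phosphatase 1, while phosphodiesterases break the cyclic nucleotides down and RGS proteins switch the G proteins off. Spiny neurons are not a cell type of the cortex, but several of these genes are also transcribed in cortical neurons, at lower levels. In bulk RNA, fewer cells of a type and less RNA per cell cannot be told apart.

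The libraries held between 12207161 and 29109990 counts. They fell into 2 library series by the library names, of 10 libraries each, with totals of 21015275 to 29109990 and 12207161 to 17697342, and every group had libraries in both. Xist, the RNA of the inactive X chromosome, measured at least 319 CPM (a count divided by its library total, per 1000000) in every female and at most 7.59 CPM in every male, while mouse Apoe stayed between 1.33 and 3.34 CPM. The Y-linked gene Ddx3y was at 14.01 CPM in the CD female E228 and at most 1.64 CPM in the other females, and without E228 the females' median log2 fold change of the 9 genes was 1.74 in place of 1.83. Several libraries stood apart in the genes described here, namely E61, E68 and E207 among the KD females, E59 among the KD males, and E249 among the CD females. The cortical marker Slc17a7, a vesicular glutamate transporter, was present in every library at 149.7 to 607 CPM. It was lowest in E249, against a CD female median of 415 CPM, and among KD females it ranged from 168 CPM in E68 to 364 CPM in E227. Low values of Slc17a7 were not limited to the libraries that stood apart, since the CD female E265 was at 200.6 CPM. Nor were they found in all of those libraries, since E59 was at 406 CPM. The cortical markers Neurod6 and Fezf2 did separate E61, E68, E207 and E249 from every other library. Neurod6 was at 8.93 to 44.3 CPM in them and at least 74.7 CPM elsewhere. Fezf2 was at 0.427 to 1.84 CPM in them and at least 6.05 CPM elsewhere. Tbr1 was at 28.1 to 42.98 CPM in them, but the KD male E64 lay within that range at 38.7 CPM. The cause of these low values was not tested.

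Of the 9 genes, 7 matched the RefSeq promoter table of GRCm38.p6, which holds windows from 250 bases before to 50 after a transcription start, while Ppp1r1b and Syndig1l did not. The matched genes gave 8 windows, with 2 for Pde10a. The following stretches, each ending at the base before the start, are shown because Rarb and Adcy5 held the repeated motifs. Capitals mark the motif GTTCAC, present 2 times with 5 bases between, in Rarb, a direct repeat of the kind that retinoic acid receptors bind, and GGGCGG, the GC box of Sp1-type factors, in Adcy5.
Rarb, chr14:16575477-16575596, minus strand: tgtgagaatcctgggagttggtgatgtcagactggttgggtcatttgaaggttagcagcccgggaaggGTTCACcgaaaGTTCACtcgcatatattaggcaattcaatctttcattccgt
Adcy5, chr16:35154704-35154863, plus strand: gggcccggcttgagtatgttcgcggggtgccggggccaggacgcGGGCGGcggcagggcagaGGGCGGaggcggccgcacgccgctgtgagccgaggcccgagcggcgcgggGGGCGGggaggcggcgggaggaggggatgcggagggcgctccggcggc
In the 250 bases before the start, on either strand, the spaced GTTCAC repeat was found in Rarb alone among the 9 genes, at bases -52 to -36, and in 2 of all 32851 windows (0.00609%). GGGCGG was found in 3 of the 8 windows, those of Adcy5, Pde10a and Rgs9, against 32.7% of all windows. The full cAMP response element TGACGTCA was in 0 of the 8 windows and in 1.55% of all, and its core TGACG, which the full element contains, was in 0 of 8 and in 17.8% of all. TATAA was found in Rgs9 and in 22.8% of all windows. These matches are descriptions of letters and say nothing of binding. The Rarb window lies inside the gene, which spans 16430839 to 16819156 on the minus strand of chromosome 14.

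The level in control-diet cortex was set per length, as CPM per kb of exon, over the 10 CD libraries. Scn4b was the most abundant at 29.6 ± 14.6 CPM per kb (SD, n = 10). Below it lay Rasd2 at 12.8 ± 4.24, Pde10a at 9.43 ± 5.35, Adcy5 at 9.42 ± 2.99 and Ppp1r1b at 8.70 ± 4.30 CPM per kb. Rgs9 at 3.94 ± 4.10 and Rarb at 3.26 ± 2.36 followed, and Zfp503 at 0.491 ± 0.161 and Syndig1l at 0.488 ± 0.485 CPM per kb came last. Neighbours in this order were further apart than the larger of their SDs in 3 of 8 steps, namely Scn4b over Rasd2, Ppp1r1b over Rgs9 and Rarb over Zfp503, and closer in the other 5. The CD means of Rgs9, Rarb and Pde10a were pulled up by E249: the medians were 2.47, 2.58 and 7.60 CPM per kb.

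Several of the genes lay below a relative in this tissue. Adcy5, the main adenylyl cyclase of the striatum, stood at 9.42 CPM per kb, while the calcium-stimulated cyclase Adcy1 stood at 106 CPM per kb, 11.3 times as high. Syndig1, the relative of Syndig1l that takes part in excitatory synapse development, was 41.3 times as high as Syndig1l on this scale. Rgs7, another RGS protein of the same subfamily as Rgs9, was 4.39 times as high, and Scn2b was 3.62 times as high as Scn4b. Ppp1r1a, which encodes the related protein phosphatase 1 inhibitor, was 3.19 times as high as Ppp1r1b. Others lay above relatives. Rarg was at 0.278 times the level of Rarb, and Rasd1 at 0.0523 times that of Rasd2. Pde10a, at 9.43 CPM per kb, was above Pde5a at 3.92 and Pde11a at 0.614 CPM per kb. Zfp503 was below Zfp703, at 1.08 CPM per kb, while Ppp1r1b was above its other relative, Ppp1r1c, at 0.0182 CPM per kb.

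**Figure D1:**
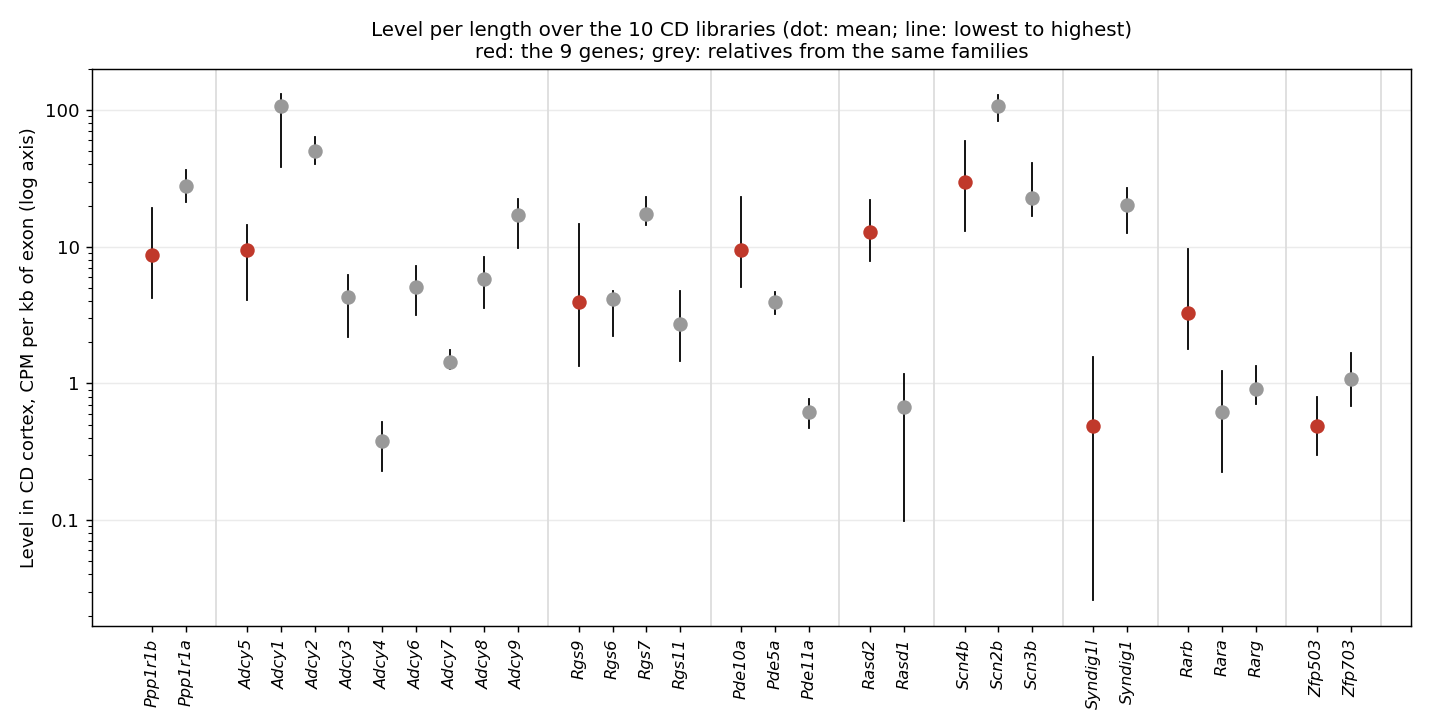
Level in CD cortex in CPM per kb of exon (log axis) for the 9 genes (red) and their relatives (grey), grouped by family. Dots are means over the 10 CD libraries and lines run from the lowest to the highest library. Not every relative is drawn, and Scn4b at 29.6 CPM per kb is the highest of the 9.

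In the following, female values are given in the order E62, E67, E228, E249 and E265 for CD and E61, E68, E207 and E227 for KD, and CD male values in the order E51, E58, E66, E251 and E264. Fold changes are from 1 edgeR model of all 20 libraries with a term for library series. The male exact permutation p-values are two-sided. They belong to another statistic, the difference between diets in mean log2 CPM with no series term, and not to the fold change printed beside them.

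Ppp1r1b encodes DARPP-32, the protein on which dopamine, glutamate and adenosine signals converge in spiny neurons (chromosome 11, 98348404 to 98357796, plus strand, GRCm38). In females it measured 19.7, 22.4, 20.7, 36.9 and 12.3 CPM on CD and 191, 125, 158 and 21.1 CPM on KD. CD males had 25.0, 56.0, 26.0, 16.8 and 18.8 CPM, and the 6 KD males ran from 10.6 over a median of 20.01 to 292 CPM. Thus 3 of 4 KD females lay above every CD female, the other (E227) lay within the CD range, and among KD males only E59 exceeded the CD males. The log2 fold change was 2.12 ± 0.757 (SE) in females, and 1.29 without E207. In males it was 0.97 ± 0.682 (exact permutation p = 0.9697) and -0.58 without E59. Exons of Ppp1r1b overlap those of 1700003D09Rik on the opposite strand over 15.7% of their length. The strand setting of the counting is not given in the sources used here, so the Ppp1r1b count is uncertain by an unknown amount. The gene 1700003D09Rik held at most 104 counts in any library and was highest in E207, E59, E61 and E68. It differed by 1.88 ± 0.759 in females and 0.73 ± 0.704 in males on the log2 scale.

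Adcy5 makes the cAMP that drives this pathway (chromosome 16, 35154877 to 35305738, plus strand). Its female values were 70.3, 77.9, 69.1, 87.1 and 29.3 CPM on CD and 332, 203, 324 and 70.2 CPM on KD. The CD males measured 77.8, 104, 65.3, 44.2 and 52.3 CPM, and KD males 40.9, 66.3 and 403 CPM at the lowest, median and highest. Besides E59, the KD male E64 was also above the CD males, at 136 CPM, and the groups overlapped in both sexes. Females differed by 1.63 ± 0.488 on the log2 scale, and by 0.98 without E207. The male difference was 0.83 ± 0.444 (exact permutation p = 0.509), and 0.17 without E59.

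Pde10a, the phosphodiesterase most typical of spiny neurons, degrades both cAMP and cGMP (chromosome 17, 8525372 to 8986648, plus strand). CD females had 98.9, 84.1, 91.9, 297 and 97.1 CPM, and KD females 609, 572, 903 and 94.9 CPM. In CD males the values were 65.1, 177, 98.2, 80.5 and 122 CPM, and in KD males they went from 63.3 over a median of 94.4 to 1108 CPM. Here the CD female E249 was set off from the other 4, yet lay below the 3 high KD females. The fitted log2 difference was 1.84 ± 0.780 in females, 1.003 without E207 and 2.46 without E249. In males it was 1.15 ± 0.714 (exact permutation p = 0.829). Without E59 that value was -0.38.

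Rgs9 speeds GTP hydrolysis by the G proteins of dopamine and opioid receptors in spiny neurons (chromosome 11, 109225355 to 109298129, minus strand). It stood at 13.2, 15.8, 15.8, 94.5 and 8.58 CPM in CD females and at 167, 150.3, 209 and 15.9 CPM in KD females. CD males showed 17.6, 43.9, 17.0, 13.7 and 11.8 CPM, and KD males a lowest value of 10.9, a median of 13.3 and a highest of 233 CPM. E249 lay far above the other CD females, whereas 5 of the 6 KD males were at or below 13.8 CPM. The log2 difference between diets was 1.83 ± 0.956 in females, 3.27 when E249 was left out and 0.74 when E207 was. For males it was 1.11 ± 0.866 (exact permutation p = 0.985), or -0.74 without E59.

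Rasd2 encodes Rhes, a small GTPase that dampens receptor signalling to adenylyl cyclase (chromosome 8, 75213944 to 75224113, plus strand). Rasd2 measured 45.0, 37.9, 47.9, 45.1 and 25.0 CPM in CD females against 168, 92.5, 141 and 37.2 CPM in KD females. Male values were 35.6, 70.1, 45.1, 26.7 and 27.2 CPM on CD and 21.6 to 292 CPM, with a median of 32.1 CPM, on KD. Unlike Rgs9 and Pde10a, Rasd2 was at an ordinary level in E249. The diet contrast came to 1.22 ± 0.577 in females on the log2 scale, or 0.63 without E207. It was 0.74 ± 0.525 in males (exact permutation p = 0.939), and -0.39 without E59.

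Scn4b encodes a beta subunit of voltage-gated sodium channels that shapes the resurgent current (chromosome 9, 45138395 to 45154152, plus strand). The CD females had 166, 135, 172, 106 and 95.9 CPM and the KD females 479, 369.6, 442 and 78.8 CPM. For CD males the values were 131, 298, 232, 65.3 and 74.1 CPM, and KD males spanned 12.7 to 1042 CPM, with a median of 59.7 CPM. This was the gene of widest spread in KD males, 82.2-fold from E64 to E59, and the KD female E227 was below all 5 CD females. The fit gave 1.05 ± 0.819 in females on the log2 scale, of which 0.19 was left without E207. The male contrast in the fit was 0.38 ± 0.741 (unadjusted p = 0.610, quasi-likelihood F test) and turned to -1.34 without E59. The plain difference in mean log2 CPM lay the other way, lower on KD, with an exact permutation p = 0.403.

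Syndig1l encodes a small synaptic transmembrane protein related to SynDIG1 (chromosome 12, 84677277 to 84698831, minus strand). In CD females it was found at 0.666, 0.729, 1.36, 3.44 and 0.0794 CPM and in KD females at 17.4, 11.3, 16.9 and 1.73 CPM. CD males measured 0.650, 4.77, 1.93, 0.816 and 0.575 CPM, and KD males ran from 0.541 over 1.31 to 38.3 CPM. It had the largest log2 difference of the 9 in females, 2.92 ± 1.11, at the lowest level. It was 1.73 without E207 and 4.07 without E249. The male difference was 1.93 ± 0.968 (exact permutation p = 0.578), -0.19 without E59 and 2.55 without E58. Its exons share 5.75% of their length with Gm48573 on the opposite strand.

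Rarb encodes retinoic acid receptor beta, which takes part in the differentiation of spiny neurons. On CD the females had 10.1, 13.5, 15.1, 51.04 and 12.0 CPM, and on KD 67.3, 85.5, 105 and 15.5 CPM. CD males were at 9.41, 21.8, 14.7, 13.6 and 10.4 CPM, and KD males at 9.66 for the lowest, 12.7 for the median and 79.5 CPM for the highest. As with Rgs9 and Pde10a, E249 was the highest CD library and E227 resembled the CD females. The log2 difference was 1.61 ± 0.656 in females, 1.03 without E207 and 2.33 without E249. Males differed by 0.71 ± 0.590 (exact permutation p = 0.764), or -0.30 without E59. Exons of Rarb overlap those of Top2b, a DNA topoisomerase, on the opposite strand over 34.1% of their length. With the strand setting not given, the Rarb count is also uncertain: Top2b held 5428 to 9586 counts per library and Rarb 151 to 2088. Top2b itself differed by -0.08 ± 0.141 in females and 0.00 ± 0.127 in males on the log2 scale.

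Zfp503 encodes Nolz1, a zinc finger repressor of the developing striatum (chromosome 14, 21983959 to 21989601, minus strand). It measured 1.90, 1.26, 1.81, 3.36 and 2.38 CPM in CD females and 10.0, 12.1, 10.3 and 3.35 CPM in KD females. CD males had 1.91, 1.68, 1.65, 1.63 and 3.10 CPM, and KD males 2.36, 3.11 and 6.24 CPM at the lowest, median and highest. All 6 KD males, E59 among them, lay above 4 of the 5 CD males, and 3 of 6 lay above all 5. The female difference was 2.02 ± 0.368 on the log2 scale, and E227 was just below the highest CD female. In males the difference was 0.88 ± 0.332, with an exact permutation p = 0.0173 that became 0.156 after Benjamini-Hochberg adjustment over the 9 genes. The adjusted p over all genes from edgeR was 0.9998, and without E59 the difference was 0.65.

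**Figure D2:**
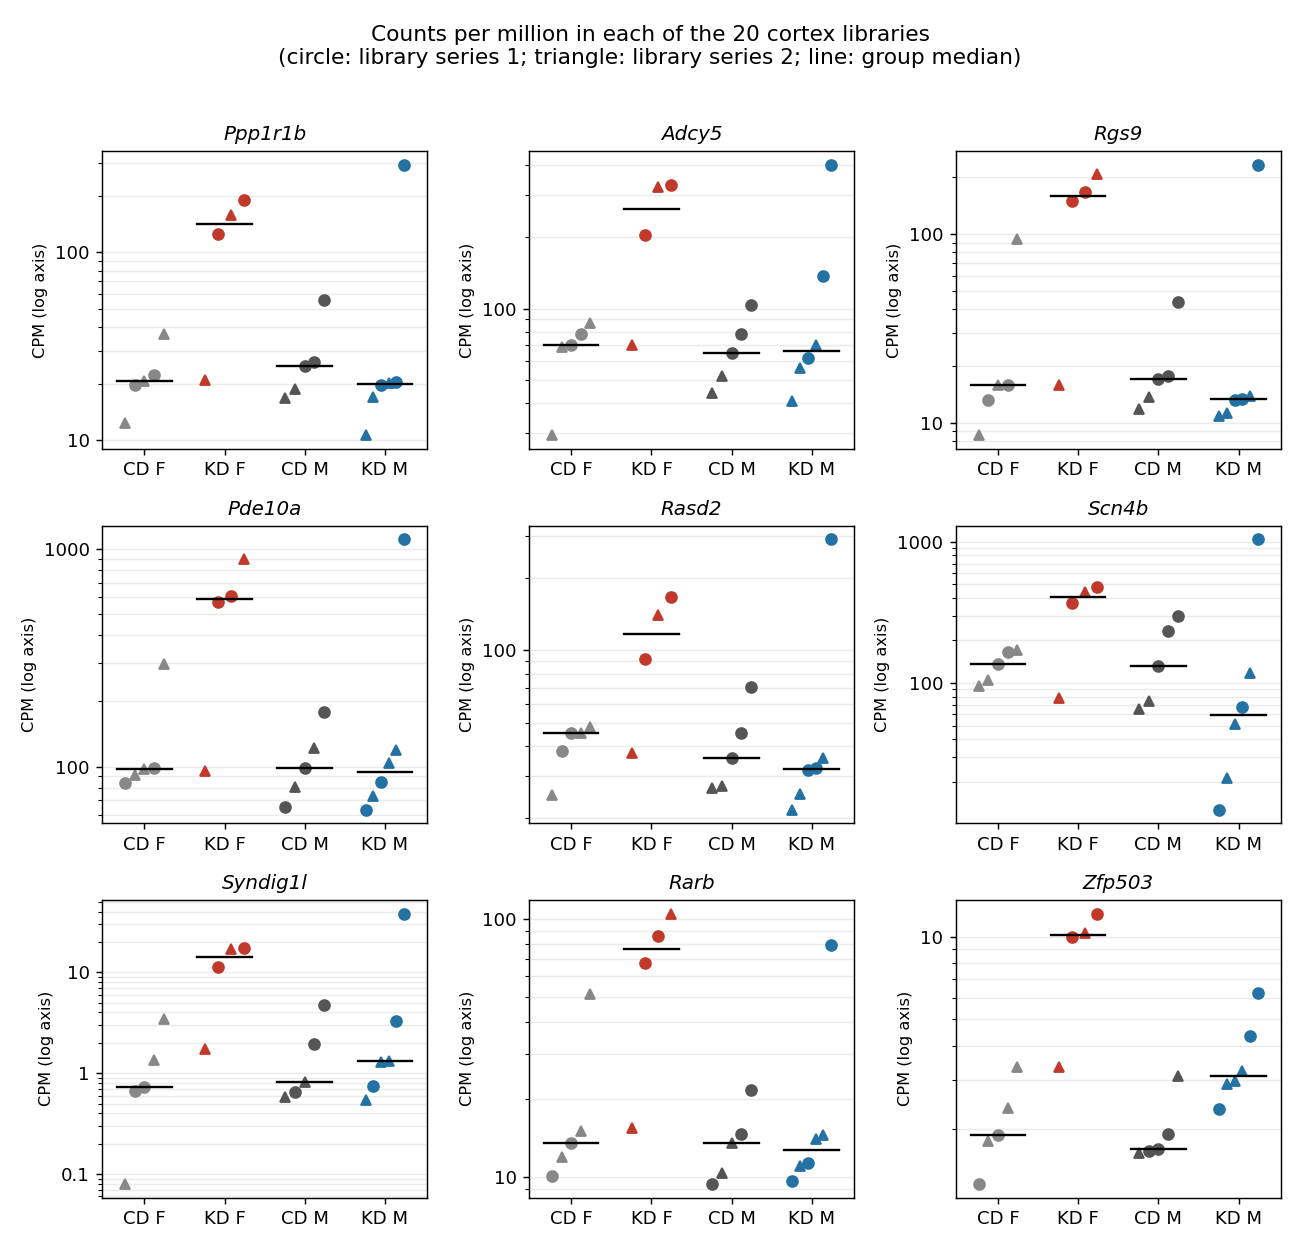
CPM (log axis) of each of the 9 genes in the 20 libraries by group (F, female; M, male). Circles are libraries of series 1, triangles those of series 2, and lines are group medians. In each gene 3 of 4 KD females lie above all CD females, and 1 KD male, E59, is among the 4 highest libraries.

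Set side by side, the 9 genes shared an order of libraries. In each of them the 4 highest of the 20 libraries were E59, E61, E68 and E207, in varying order. E59 was highest for 7 genes, E207 for Rarb and E68 for Zfp503. The step down from these 4 to the next library was widest for Syndig1l, 2.36-fold, and narrowest for Scn4b, 1.24-fold. Which library came next differed: it was E58, a CD male, for Ppp1r1b, Rasd2, Scn4b and Syndig1l, E249 for Rgs9, Pde10a and Rarb, and E64 for Adcy5 and Zfp503.

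**Figure D3:**
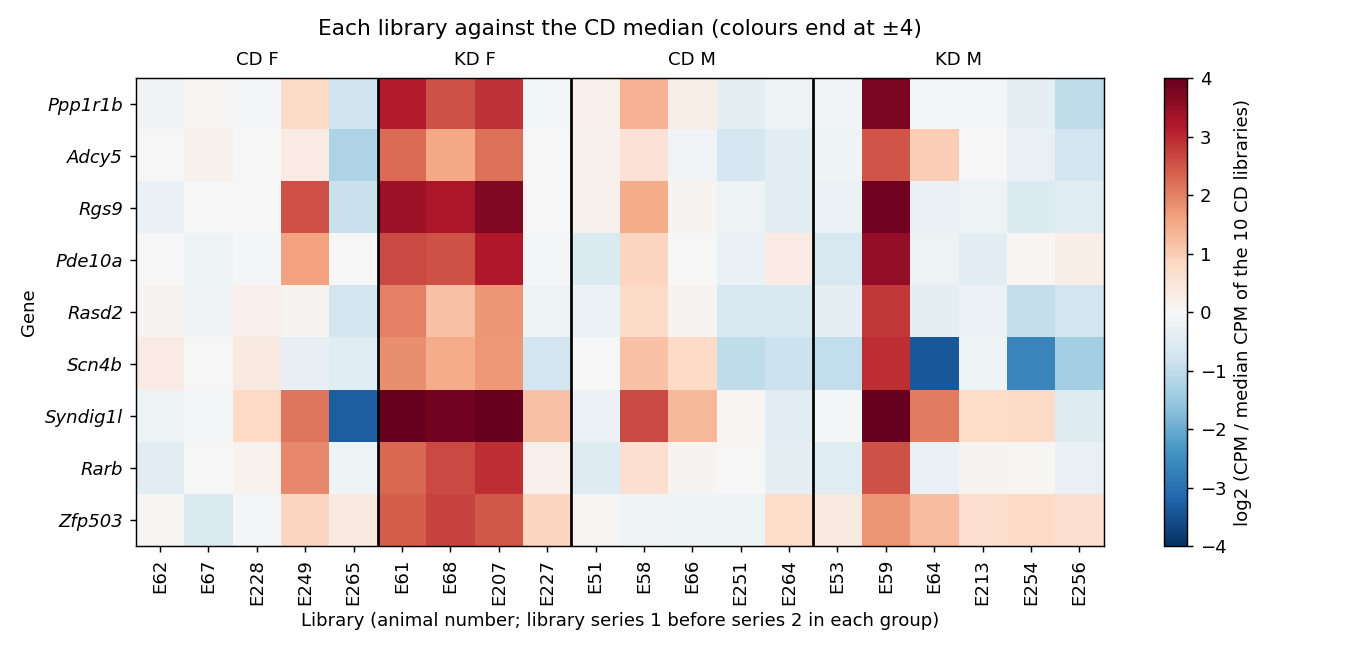
log2 of the CPM in each library over the median CPM of the 10 CD libraries, for the 9 genes (rows) and 20 libraries (columns, named by animal). Columns E61, E68, E207 and E59 are red in every row, E227 is near the CD median in most rows, and Scn4b is blue in E64 and E254.

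Across the 9 genes the females' log2 fold changes had a median of 1.83, against 0.01 over all genes tested, and 9 of 9 were higher on KD, against 52.7% of all genes. The median was 2.65 in library series 1 and 1.46 in series 2, so the direction was the same in both. The KD females of series 2 were E207 and E227. Since E227 exceeded the highest CD female in none of the 9 genes, the series 2 value rested on E207. At a false discovery rate of 0.1 and 1.5-fold, 1 of 9 was called, Zfp503, where 0.0447% of all genes were called. Since the genes were chosen from this contrast, nothing is read from these counts. The KD and CD females overlapped in all 9 genes, where 1.7% of all genes lay higher on KD with no overlap. The median was 1.003 without E207, 2.21 without E227 and 2.33 without E249. Called genes numbered 3 without E227 (Ppp1r1b, Adcy5 and Zfp503) and 7 without E249, all but Rasd2 and Scn4b, with 5.68% and 6.66% of all genes called. Adcy5 and Zfp503 were called by the edgeR likelihood ratio test, with 1.4% of all genes, and by DESeq2, with 1.62%. Zfp503 alone was called in library series 1, with 5.42% of all genes.

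In males the median over the 9 genes was 0.88, against -0.003 over all genes, and 9 of 9 were above 0, against 49.1% of all genes. No gene was called by edgeR, 0 of 9 where 0% of all genes were. By the quasi-likelihood test 1 of the 9, Zfp503, had an unadjusted p under 0.05, as had 557 of all genes. The edgeR likelihood ratio test and DESeq2 also called 0 of 9, and each called 0 of all 15660 genes. The exact permutation p-values of the other 8 genes ran from 0.403 to 0.985, where the smallest p that 462 arrangements allow is 0.0022. The median rested on 1 library: without E59 it was -0.38, with Adcy5 and Zfp503 above 0 and the other 7 below. Within library series 1, which holds E59, it was 1.26, and within series 2 it was 0.03. Groups overlapped in all 9 genes, where 0.102% of all genes lay higher on KD with no overlap.

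**Figure D4:**
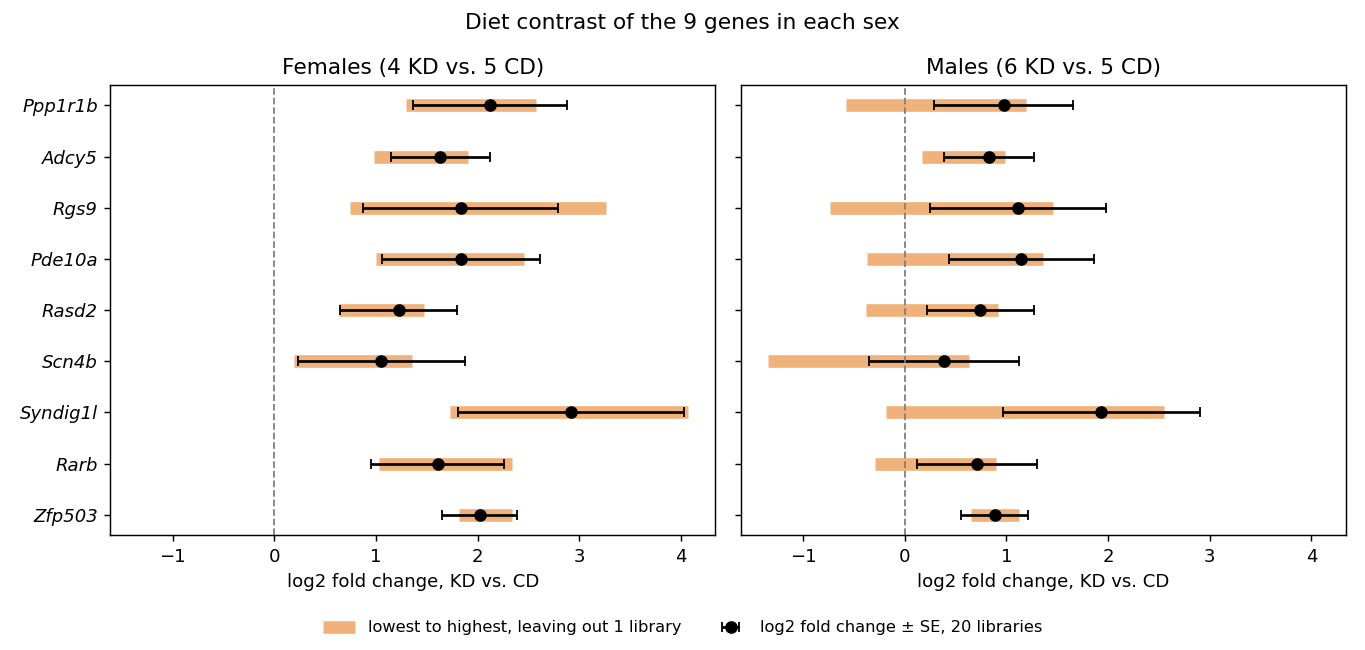
log2 fold change KD vs. CD of the 9 genes in females (left) and males (right). Dots are estimates from all 20 libraries with their SE, and orange bars run from the lowest to the highest estimate when 1 library is left out. In females all bars stay above 0, and in males those of 7 genes cross 0.

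The diet effect in females minus that in males lay between 0.48 (Rasd2) and 1.15 (Ppp1r1b), with a median of 0.80, and 0 of 9 were called, against 0% of all genes. Leaving out 1 library moved that median from -0.07 (without E207) to 2.41 (without E59). The males and females on CD were also set side by side. The estimates, which adjust for library series, were above 0 in CD females for all 9, from 0.10 for Ppp1r1b to 0.99 for Rgs9 with a median of 0.30, where 49.9% of all genes were higher, and 0 of 9 were called against 0.0383% of all genes. The mean CPM ran the other way for 5 of the 9: Ppp1r1b was at 22.4 CPM in CD females and 28.5 in CD males, and Adcy5, Rasd2, Scn4b and Syndig1l were also lower in CD females. Without the library series term the median was -0.02. The sign turned with the library series, since 0 of 9 were higher in CD females in series 1 and 9 of 9 in series 2, which holds E249. Without E249 the median was -0.11.

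The other genes of the pathway fell into lists that moved differently. Of 20 further spiny neuron pathway genes (receptors, peptides, G proteins and transcription factors), 20 of 20 were above 0 in each sex, with median log2 fold changes of 1.67 (females) and 0.97 (males), and none was called. Among them Arpp21, a striatum-enriched cAMP-regulated phosphoprotein, differed by 0.76 ± 0.227 in females and 0.47 ± 0.205 in males. Gnal, the G protein that couples dopamine receptors to the cyclase, differed by 1.01 ± 0.465 and 0.39 ± 0.417, and Pde1b, a calmodulin-dependent phosphodiesterase, by 1.43 ± 0.448 and 0.73 ± 0.405. Foxp1, a transcription factor of spiny and cortical neurons, stood at 0.22 ± 0.273 and 0.05 ± 0.247. Summed over the list, E59 reached 4930 CPM and E207 4663 CPM, while the CD libraries other than E249 (2345 CPM) stayed at or below 1430 CPM. The male median was -0.25 without E59.

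By contrast, the 30 genes of DARPP-32 and cAMP signalling that most neurons share (kinase A subunits, phosphatases, their regulators) had medians of -0.04 in females and -0.03 in males, with 13 and 11 of 30 above 0 and none called. The calcineurin subunits Ppp3ca and Ppp3r1 differed by -0.04 ± 0.161 and -0.37 ± 0.163 in females. Their male differences were -0.04 ± 0.145 and -0.12 ± 0.146. The protein kinase A subunits Prkacb and Prkar1a stood at 0.00 ± 0.0939 and -0.05 ± 0.0848 in females and at 0.01 ± 0.0848 and 0.01 ± 0.0764 in males. The 30 genes summed to between 10036 and 13911 CPM in the 20 libraries, a narrow band beside the 9 genes, which summed to between 249.3 CPM in E254 and 3494 CPM in E59.

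Relatives of the 9 genes, 22 of 23 of which were tested, had medians of -0.12 in females and -0.14 in males, with 10 and 8 above 0 and none called. Their sum was 1881, 1720, 1801 and 1673 CPM in E61, E68, E207 and E249, against 2528 to 3228 CPM in the other libraries. Adcy1 and Adcy2 differed by -0.99 ± 0.369 and -0.40 ± 0.125 in females. Scn2b, an abundant sodium channel beta subunit, stood at 0.17 ± 0.0838.

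Marker lists of neighbouring cell types moved in the same libraries, and their part in the results was not tested. Cortical excitatory neuron markers had a median of -0.77 in females (3 of 14 above 0) and -0.12 in males (1 of 14). Their sum was 852 CPM in E249 and 874 to 1384 CPM in KD females, against at least 1337 CPM in the other CD females, and KD males lay between 1232 and 1469 CPM. Basal forebrain cholinergic markers, 7 of 8 tested, had medians of 2.21 in females and 1.68 in males, 7 of 7 above 0 in each. Their sum was 143 CPM in E249, 139 to 192 CPM in E61, E68 and E207, 63.997 CPM in E59 and at most 17.8 CPM in every other library. Chat, which makes acetylcholine, ranged from 0.0794 to 6.72 CPM in CD females and from 0.299 to 20.4 CPM in KD females. Choroid plexus markers had medians of 0.36 and 1.94, and their sum was 2404 CPM in E59 against at most 69.3 CPM in the other 19 libraries. Ttr, the transthyretin made by choroid plexus, accounted for 2187 CPM of it.

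**Figure D5:**
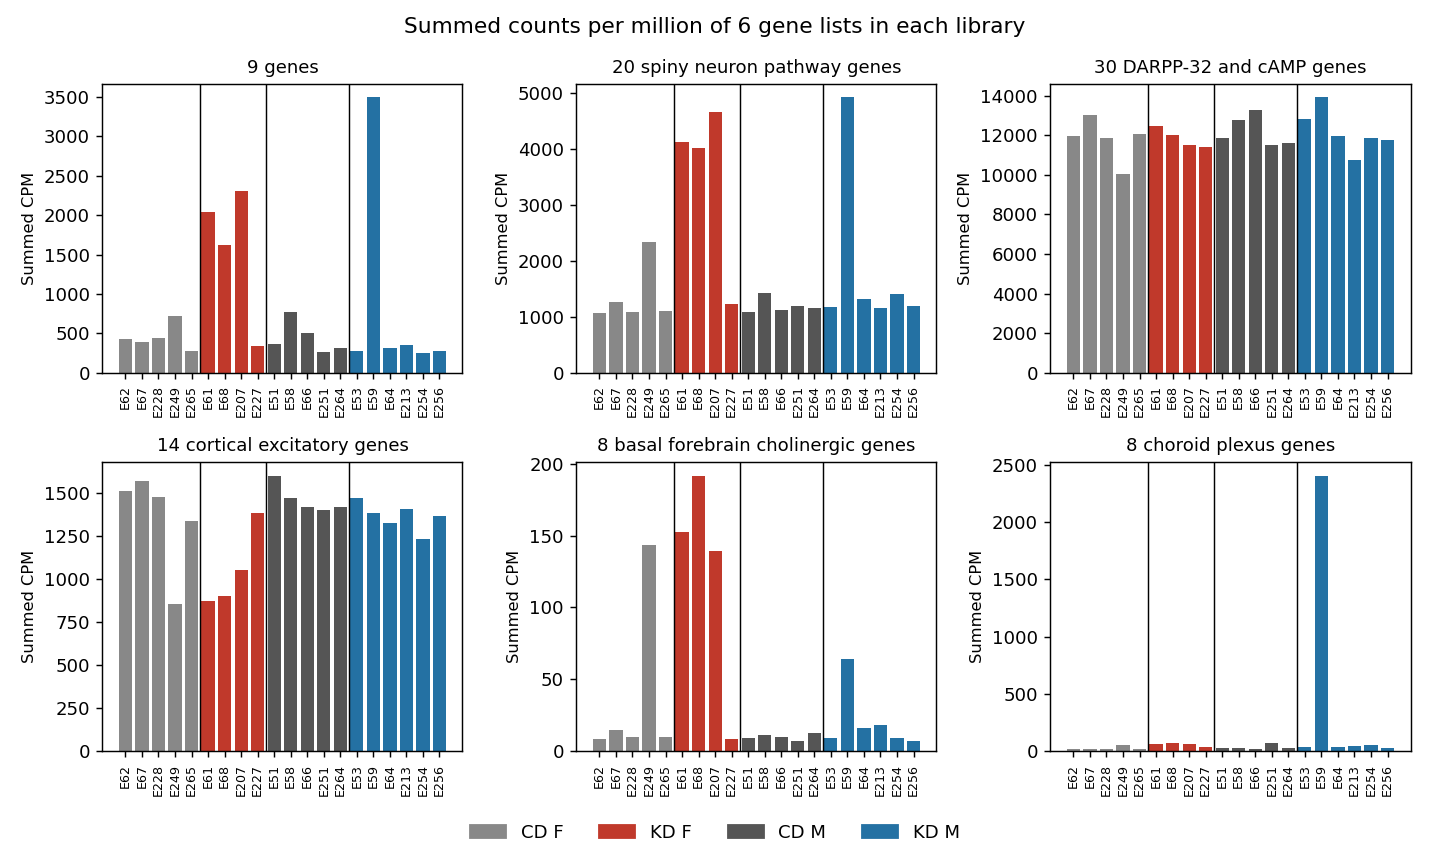
Summed CPM of 6 gene lists in each library, coloured by group (F, female; M, male), each panel with its own axis from 0. The 9 genes and the spiny neuron pathway genes are high in E61, E68, E207 and E59, the DARPP-32 and cAMP genes are not, and choroid plexus genes are high in E59 only.

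Cortical interneuron markers had medians of 0.15 in females and -0.05 in males, and they split in females. Above 0 were Slc32a1 (1.14), Gad2 (1.09), Lhx6 (0.80), Gad1 (0.25) and Sst (0.05). Below 0 were Vip (-1.25), Pvalb (-0.91) and Npy (-0.64). Slc32a1, Gad2 and Gad1 are genes of GABA neurons in general, spiny neurons among them, so the list is not specific to interneurons. The part of this list was not tested either. Its sum, to which these markers contribute unequally, was 1599, 1989, 1957 and 1799 CPM in E61, E68, E207 and E249. It was 1280.5 CPM in E59 and 748 to 1094 CPM in the other 15 libraries. Hippocampal markers had medians of 0.59 and 0.64. Their sum was 217, 194 and 206.6 CPM in E61, E68 and E207, 155 CPM in E249, 95.3 CPM in E59 and 101 CPM in E227, and was highest in E64 at 232 CPM. Thalamic markers gave 0.28 and -0.03. Oligodendrocyte markers had 0.27 and -0.41, astrocyte markers 0.16 and 0.05, and microglial markers 0.31 and 0.10. None of the genes in these lists was called in either sex, and no gene of any of the 12 lists was at 0 in all 20 libraries.

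How closely the genes moved together was measured over the 20 libraries after group means and library series had been removed. Ppp1r1b followed the mean of the other 8 most closely (r = 0.985), then Rgs9 (0.962), Pde10a (0.953) and Rarb (0.950). Rasd2 (0.934), Syndig1l (0.913) and Adcy5 (0.900) came next, while Scn4b (0.720) and Zfp503 (0.675) followed least. The lowest pair was Scn4b with Zfp503, at 0.342. For the lists, log2 of the summed CPM was used after the same removal, so abundant genes of a list weigh most. The sum of the spiny neuron pathway list had r = 0.957 with the mean of the 9 genes. That of the cholinergic markers had 0.835, of the choroid plexus markers 0.798 and of the interneuron list, with its general GABA neuron genes, 0.791. The DARPP-32 and cAMP list had 0.115, the cortical excitatory list -0.500 and the relatives -0.571. The choroid plexus sum was 2404 CPM in E59 and at most 69.3 CPM in any other library, and none of these correlations was recomputed without E59. These values share libraries and depth and are given as a description.

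Single genes outside the 9 were also correlated with the mean of the 9, over 20 libraries and after the same removal. The most alike were Tgfa (r = 0.982), Pde1b (0.979), Adora2a (0.971), Strn (0.969), Srgap1, Gprin3 and Gpx6 (each 0.960), Drd2 (0.958), and Lrrc10b and Cyp2a5 (each 0.957). Tgfa, a growth factor of the EGF family, ran from 16.8 to 110.0 CPM, and Adora2a, an adenosine receptor of spiny neurons, from 0.159 to 72.3 CPM, both highest in E59. Drd2, the dopamine D2 receptor, ran from 0.0794 to 23.98 CPM. Gpx6 and Cyp2a5 were at 0 in at least 1 library.

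In the 11 male libraries the 36 pairs of the 9 genes had a median Pearson r of 0.873 on log2 CPM (range -0.036 to 0.987) and a median Spearman rho of 0.486. Here neither diet group nor library series was removed, and the permutations mixed males of both diets and both series. The genes were also chosen together as genes of 1 cell type, so the p-values are given as a description. After Benjamini-Hochberg adjustment over the pairs, the permutation p of r was under 0.05 for 25 pairs and that of rho for 11. Leaving out the 2 libraries farthest from the median of the pair's first gene brought the median r to 0.322, with 12 pairs below 0, so the relation rests on those libraries. Ppp1r1b with Rgs9 stood at r = 0.986 (permutation p = 2e-05, adjusted 0.00048) and rho = 0.845 (p = 0.00192, adjusted 0.0115), and at r = 0.786 without E59 and E58. The pair Ppp1r1b and Pde10a went from r = 0.887 to -0.51.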

How the data were processed

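The authors aligned 50-bp paired reads of total RNA to mm10 with STAR, per the submitters' processing notes, and the deposited values are raw counts per gene, in 1 table per mouse. Versions, annotation and strand setting are not given in the sources used here. Groups came from the sample labels, and library series from the library names.

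CPM were computed from the deposited counts, and put on a log2 scale after adding a prior count of 2. Exon lengths, coordinates and overlaps came from GENCODE vM21 (GRCm38). In R 4.3.3, edgeR 4.0.16 was fitted to all 20 libraries (upper-quartile scaling, filterByExpr, 4 groups and library series, robust quasi-likelihood F test, Benjamini-Hochberg), with calls at a false discovery rate of 0.1 and 1.5-fold. The study's RUVg step, whose settings are not given, was an alternative with 1 factor, as were DESeq2 1.42.0, other scalings and filters, each series or sex alone, and leaving out each library. Single genes in males were tested by exact permutation of log2 CPM without the series term. Pairs were permuted 100000 times over all males, with neither diet nor series removed. The fit was tested on simulated data.

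The 9 genes and the lists were chosen with earlier results of these data known. Named from the lists were the 4 genes of highest CD level where examples are given, and the 10 genes most alike. The relatives set beside each gene by level, the overlapping genes and the single interneuron markers were named after their values were seen. So were the cortical markers Neurod6, Fezf2 and Tbr1. Replicate libraries differed beyond sampling noise in all 41 pairs (chi-square per degree of freedom 7.25 to 115.2). Reads carry no molecular identifiers. Values of some single list genes are not reported here.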

Additional observations from a re-analysis of the deposited data

Results flagged for a closer look

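Libraries set apart within each group of 4 to 6 mice were sought on the log2 CPM scale. The gap of the highest or lowest library to its neighbour was divided by the whole range of that group. This ratio was compared with Dixon's 95% critical value for each gene, 36 groups in all. In 13 of them the value was exceeded. Chance gives about 1.8 where genes are independent, but these genes move together and were chosen from results on these females, so the values are a description of which libraries stood apart.

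The KD male E59 was set apart upward in Ppp1r1b (0.804 of the range), Rgs9 (0.922), Pde10a (0.781), Rasd2 (0.809) and Rarb (0.803). The KD female E227 was set apart downward in Rgs9 (0.872), Scn4b (0.856) and Zfp503 (0.847). Among CD females, E249 was set apart upward in Rgs9 (0.748), Pde10a (0.871) and Rarb (0.754). E265 was the lowest CD female in Adcy5 (0.787), at 29.3 CPM, and E264 the highest CD male in Zfp503 (0.774), at 3.10 CPM.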

How the results depend on the processing

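No paired analysis was possible because the replicate names are animal numbers and no number is shared between groups. In females all 9 genes stayed above 0 on KD in each of the alternatives run, 278 values from 0.19 to 4.30. The alternatives reuse the females on whose contrast the genes were chosen, so nothing is read from this. The count of female calls, 1 of 9, was 0 at a false discovery rate of 0.05, 0 in library series 2 alone, 0 with each sex fitted separately, 2 with the edgeR likelihood ratio test and 2 with DESeq2, and ran from 0 to 7 when 1 library was left out. It was 3 without E59 or E227, 7 without E249, and 0 without E51, E58, E62, E67, E61, E68, E207, E265, E228, E251 or E254. Calls over all genes moved too, from 7 of 15660 in the main fit to 38 of 15504 without E59. They were 906 of 15949 without E227 and 1046 of 15710 without E249. In the leave-outs with 0 of the 9 called, they ran from 0 (without E61 or E207) to 5 (without E51). They were 0 of 15458 in series 2 alone and 1 of 15417 with each sex fitted separately. The cause was not tested. In males the count was 0 in every alternative run, and each refit called 0 of all tested genes too, so this count says nothing particular of the 9.

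Male log2 differences turned below 0 in library series 2 alone for Ppp1r1b (-0.15), Rgs9 (-0.0886), Pde10a (-0.0196) and Scn4b (-0.14). Leaving out 1 library gave a range of -0.38 to 1.02 for the male median, -0.58 to 1.19 for Ppp1r1b, -0.74 to 1.46 for Rgs9, -0.38 to 1.36 for Pde10a and -0.39 to 0.91 for Rasd2. The range was -1.34 to 0.63 for Scn4b, -0.19 to 2.55 for Syndig1l and -0.30 to 0.89 for Rarb, with each lowest value the one without E59. Of 1185 values for single genes, 1158 kept their direction and moved by less than the spread. A minimum of 10 counts in every library left out Syndig1l, whose median in CD cortex was 0.773 CPM.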
